A study of Mus musculus with 18 samples.

Results

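The growth hormone (GH) and insulin-like growth factor (IGF) axis was followed in mouse liver through 9 genes, Igf1, Ghr, Igfals, Igfbp1, Igfbp2, Igfbp3, Igfbp4, Socs2 and Stat5b. They are 9 of 16535 genes with a symbol on the array, and the rule that picks them names the genes and uses no measured value. The array carried 13 probes for them among 41174 probes, and all 13 were among the 32056 probes that passed the filter on dim signals. Liver RNA of 5 control and 5 hypothyroid male C57BL/6 pups, taken at PND 15, was hybridized against a universal mouse reference RNA on 10 two-colour arrays, out of 18 samples in the series. The dams of the hypothyroid pups drank sugar water with 0.05% methimazole (MMI), which blocks hormone synthesis in the thyroid, and 1% perchlorate, which blocks its uptake of iodide, from PND 12. The dams of the control pups drank sugar water, and all pups received PBS by injection before they were killed. The exposure was short and reached the pups with their dams. By the study's methods 1 male pup was taken per litter, so the pups of a group stand for separate litters.

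GH from the pituitary binds its receptor, Ghr, on hepatocytes, and the kinase JAK2 then activates STAT5B, which switches on Igf1, Igfals and Socs2. Most IGF-1 of the blood comes from the liver and travels in a complex with IGFBP-3 and the acid-labile subunit, the product of Igfals, while IGFBP-1, IGFBP-2 and IGFBP-4 form smaller complexes that hold IGF away from its receptor. In the mouse the axis matures after birth, as Ghr and Igf1 rise in liver and the fetal growth factor gene Igf2 is shut down, and the pituitary needs thyroid hormone to make GH. The comparison of the groups asks which transcripts of this axis differ in liver after a few days of low thyroid hormone.

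The promoters of 4 of the genes are shown because the measurements below concern a target of GH signalling (Igf1), a subunit of the IGF complex that GH controls (Igfals), a binding protein held down by insulin (Igfbp1) and the signalling factor itself (Stat5b). Each runs from 250 bases before to 50 bases after a RefSeq start on GRCm38.p6. Capitals mark the STAT site TTCNNNGAA, the half-site AGGTCA read by thyroid hormone and other nuclear receptors, and the CAAAACAA core of the insulin response element, searched on both strands.
Igf1, chr10:87860861-87861160, + strand: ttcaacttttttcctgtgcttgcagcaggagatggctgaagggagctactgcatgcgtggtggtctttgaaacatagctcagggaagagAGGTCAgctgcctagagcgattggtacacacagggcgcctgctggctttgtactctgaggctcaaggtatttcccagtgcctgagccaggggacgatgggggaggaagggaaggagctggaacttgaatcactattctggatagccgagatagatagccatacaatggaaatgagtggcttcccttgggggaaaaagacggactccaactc
Igfals, chr17:24877981-24878280, + strand: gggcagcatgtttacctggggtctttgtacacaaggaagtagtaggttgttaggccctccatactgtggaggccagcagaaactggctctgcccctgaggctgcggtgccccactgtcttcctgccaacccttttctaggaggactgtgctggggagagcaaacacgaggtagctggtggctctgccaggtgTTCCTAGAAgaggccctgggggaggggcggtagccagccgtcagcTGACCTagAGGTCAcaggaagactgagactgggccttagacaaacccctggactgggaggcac
Igfbp1, chr11:7197537-7197836, + strand: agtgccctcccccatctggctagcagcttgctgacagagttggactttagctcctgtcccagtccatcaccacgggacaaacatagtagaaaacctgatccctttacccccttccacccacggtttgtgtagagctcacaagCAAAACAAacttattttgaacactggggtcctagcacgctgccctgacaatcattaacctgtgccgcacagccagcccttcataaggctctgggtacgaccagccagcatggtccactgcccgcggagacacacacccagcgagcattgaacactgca
Stat5b, chr11:100850532-100850831, - strand: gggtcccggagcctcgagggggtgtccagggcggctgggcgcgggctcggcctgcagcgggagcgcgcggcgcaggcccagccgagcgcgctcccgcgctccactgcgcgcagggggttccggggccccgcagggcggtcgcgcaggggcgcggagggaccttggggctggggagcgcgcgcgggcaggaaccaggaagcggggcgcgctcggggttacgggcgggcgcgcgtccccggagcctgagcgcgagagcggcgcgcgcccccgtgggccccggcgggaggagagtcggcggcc
The table of promoters held windows for 8 of the 9 genes. TTCNNNGAA was in 8.3% of all 32851 windows and, among these genes, in 2 of the 3 windows of Igfals only. AGGTCA was in 16.3% of all windows and in windows of 3 genes, Igf1, Igfals and Stat5b. CAAAACAA was in 2.51% of all windows and in that of Igfbp1, where it starts 108 bases before the RefSeq start. The Stat5b window printed here held no match, and 82.7% of its bases were G or C. A match describes letters in the window and does not show a site in use.

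The arrays differed in ways that touch these genes. The ratios of control 832 and hypothyroid 576 were inverted against all other arrays when the dyes were read as labelled (correlations across probes of -0.97 and -0.98). Both lie on 1 slide, their channels were exchanged, and their direction rests on that step. Control 616 had weak ratios, with a correlation of 0.88 to the other slides where the rest had 0.97 to 0.99, and it was the lowest control for 10 of the 13 probes. Controls 832, 522 and 616 also had high ratios for markers of exocrine pancreas, with means of 3.72, 3.94 and 2.30 against 0.79 to 1.01 on the other arrays. Results are given with and without control 616, and the effect of the other arrays is given for the 9 genes together and beside the results they move. Every value below is a log2 ratio of liver to reference RNA or a difference of such ratios, hypothyroid minus control. The reference differs for each gene, so ratios do not rank one gene against another.

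None of the 13 probes passed an adjusted p of 0.05 by limma, as 0.00936% of all tested probes did (3 probes). At an unadjusted p below 0.05 there were 2, the probe for Igfbp2 with a higher mean and 1 of the Stat5b probes with a lower mean in hypothyroid liver, beside 7.47% of all probes. None was without overlap between the groups, beside 2.07% of all probes. The median change was 0.25 over the 13 probes and -0.01 over all probes tested, and without control 616 the first median was 0.00. Without that array 0 of the 13 passed, beside 0.103% of all probes (33 probes), and both Stat5b probes had an unadjusted p below 0.05, beside 7.36%. By an exact two-sided permutation test over all assignments of 5 against 5 arrays, which can reach 0.00794, 2 of the 9 lead probes (the brightest probe of each gene) had p below 0.05, beside 8.11% of all probes read on every array. With the dyes as labelled all 9 lead probes kept their sign, and 0 had an unadjusted p below 0.05. Without the exchanged slide the lead probes had changes from -0.36 (Stat5b) to 0.91 (Igfbp1), and 2, those of Stat5b and Igfbp2, had an unadjusted p below 0.05. Without controls 832, 522 and 616, an alternative added after the data were seen, the changes ran from -0.61 (Stat5b) to 0.63 (Socs2), those of Igf1, Ghr, Igfals, Igfbp1, Igfbp3 and Igfbp4 lay between 0.02 and 0.17, and 3, those of Stat5b, Igfbp2 and Socs2, had an unadjusted p below 0.05.

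**Figure D1:**
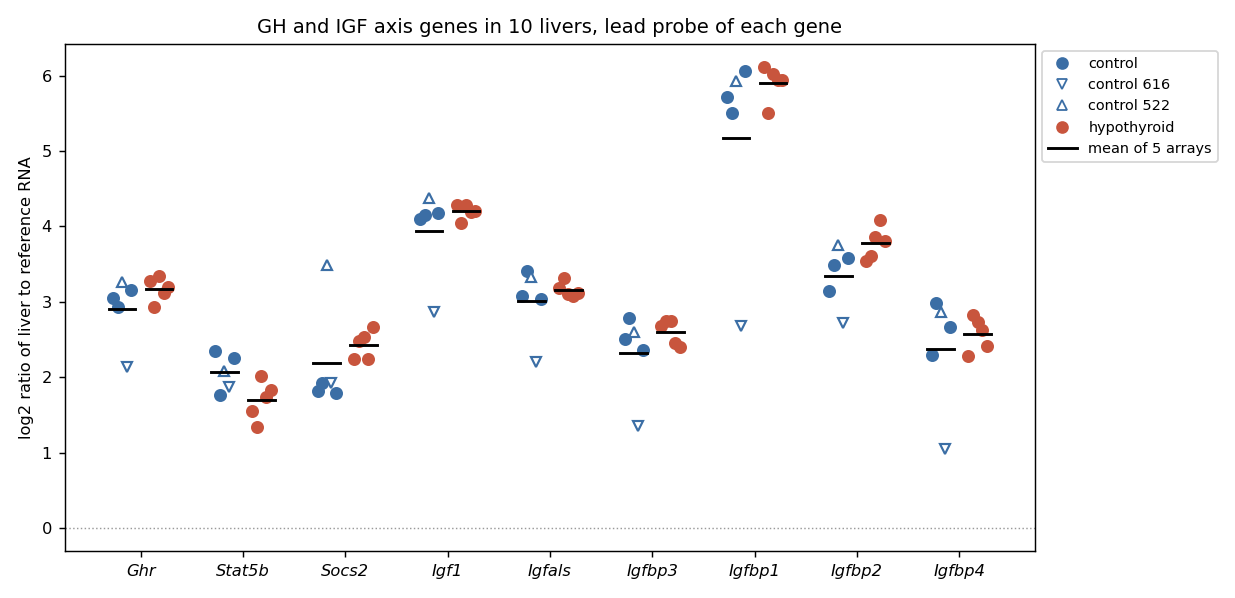
Log2 ratio of liver to reference RNA (y axis) for the lead probe of each of the 9 genes (x axis) in 5 control and 5 hypothyroid livers, with the mean of each group as a bar and controls 616 and 522 as open triangles. Control 616 was at 2.67 for Igfbp1 where the other controls were at 5.50 to 6.06, and control 522 was at 3.48 for Socs2 where the other controls were at 1.79 to 1.92.

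Ghr, the receptor through which the liver reads GH, was measured by 3 probes. Its lead probe gave 3.04, 2.93, 3.27, 2.13 and 3.15 in controls 881, 832, 522, 616 and 391, and 3.27, 2.93, 3.35, 3.11 and 3.19 in hypothyroid livers 891, 576, 311, 723 and 626, an order of animals kept below. The groups overlapped, and control 616 alone lay below the rest. The change of the lead probe was 0.27 (limma standard error 0.19, adjusted p = 0.754), and without control 616 it was 0.07 with a 95% interval of -0.14 to 0.29. A probe for another Ghr transcript, on which control 616 was not apart at 2.25, gave 2.28 ± 0.08 (SD, n = 5) in control and 2.35 ± 0.15 in hypothyroid liver. On the 4 slides that hold both groups this probe was higher in the hypothyroid liver each time, by 0.10 ± 0.03 (SD, n = 4), while hypothyroid 723, at 2.11, was below control 391, at 2.18, each on a slide that held no array of the other group. The last probe, for the same transcript as the lead probe, gave 3.06 ± 0.67 and 3.33 ± 0.06, and without control 616 its change was -0.03. Which form of the receptor each transcript encodes was not examined. None of the 3 Ghr probes passed the test between groups, and without control 616 their intervals held changes from -0.18 to 0.29.

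Stat5b, which carries the GH signal to the nucleus of the hepatocyte, had a lower mean in hypothyroid liver on both of its probes. The lead probe (A_52_P53698) gave 2.35, 1.76, 2.08, 1.87 and 2.26 in control and 1.55, 1.34, 2.02, 1.74 and 1.82 in hypothyroid livers. Of the hypothyroid livers 3 of 5 lay below every control, while hypothyroid 311 and 626 lay within the range of the controls. The change of Stat5b was -0.37 (standard error 0.15, unadjusted limma p = 0.0275, adjusted p = 0.627), and the exact permutation p was 0.0476. It lay below 0 on all 4 slides that hold both groups, with a mean within-slide difference of -0.34 ± 0.36 (SD, n = 4). The single differences were -0.05 and -0.07 on the slides of controls 616 and 522. They were -0.80 on the slide of control 881 and -0.42 on that of control 832, the slide with exchanged channels. The dimmer probe (A_51_P281938) gave 0.30, 0.44, 0.43, -0.17 and 0.18 in control and 0.04, 0.05, 0.18, 0.12 and 0.04 in hypothyroid livers. Its change was -0.15 (adjusted p = 0.754) and, without control 616, -0.25 (unadjusted p = 0.00508, adjusted p = 0.335). Every hypothyroid liver then lay below the 4 controls left, and 933 of 32055 probes tested had no overlap in that comparison. Within slides the dimmer probe differed by 0.21 on the slide of control 616 and by -0.26, -0.26 and -0.39 on the others. Without controls 832, 522 and 616 the change of the lead probe was -0.61 (unadjusted p = 0.00307, adjusted p = 0.344). Controls 881 and 391, which were left, had the highest control ratios on this probe, at 2.35 and 2.26. With slide as a fixed block the change of the lead probe was -0.34 (unadjusted p = 0.065), and with the dyes as labelled it was -0.20. Leaving out control 881, control 391, hypothyroid 891 or hypothyroid 576 alone gave -0.30, -0.32, -0.34 and -0.28. The unadjusted limma p was then 0.0709, 0.0661, 0.0628 and 0.0706, and it stayed below 0.05 when any other single array was left out.

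Stat5a, the close relative of Stat5b and its direct neighbour on chromosome 11 with 0 genes between them, stood on a probe of its own. Its ratios were 0.89, 1.05, 0.64, 0.63 and 1.37 in control and 0.67, 0.24, 0.14, 0.55 and 0.46 in hypothyroid livers. Only hypothyroid 891, at 0.67, reached the range of the controls. The change of Stat5a was -0.50 (standard error 0.15, unadjusted p = 0.00744, adjusted p = 0.491) and, without control 616, -0.57. Stat3, the next gene on that side, had a change of 0.04 (adjusted p = 0.95). The 2 Stat5 genes are close in sequence, and how far their probes read each other's RNA was not tested.

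Socs2, which GH induces through STAT5B and whose product shuts the receptor off again, was spread by a single control. The ratios were 1.82, 1.92, 3.48, 1.92 and 1.79 in control and 2.25, 2.48, 2.53, 2.24 and 2.67 in hypothyroid livers. All hypothyroid livers lay above 4 of the controls and below control 522. The change over all arrays was 0.25 (standard error 0.29, adjusted p = 0.841), and the exact permutation p was 0.516. Without control 522 the change was 0.57 (unadjusted p = 0.000195, adjusted p = 0.178), without controls 832, 522 and 616 it was 0.63 (unadjusted p = 0.00053, adjusted p = 0.199), and within slides it was 0.75, 0.43 and 0.56 on 3 slides and -0.95 on the slide of control 522. Cish, a sister gene of Socs2 that GH also induces and which was looked at after its values were seen, was again highest among controls in 522, at 2.91 against 1.59 to 2.06. In hypothyroid liver Cish ran from 1.33 to 2.71, its change was -0.01 (adjusted p = 0.994), and among hypothyroid livers 626 had the highest ratio of both genes. Control 522 was also the highest control for Igf1, for the lead probe of Ghr, for Igfbp2 and for the mean of the hepatocyte markers. For Igfals and the lead probes of Igfbp3 and Igfbp4 the highest control was 832, for Igfbp1 it was 391, and for the lead probe of Stat5b it was 881.

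Igf1, the hormone of the axis, had close values in all livers but 1. Its ratios were 4.10, 4.15, 4.38, 2.87 and 4.18 in control and 4.28, 4.05, 4.28, 4.19 and 4.21 in hypothyroid livers. The change was 0.27 (standard error 0.24, adjusted p = 0.795), and it rested on control 616, without which the change was 0.00 (standard error 0.08) with a 95% interval of -0.17 to 0.17. From the liver channel alone on the 8 arrays without exchanged channels, with control 616 kept, the sign turned, at -0.28 (unadjusted p = 0.0717). On a linear scale the interval of the ratios runs from 0.888-fold to 1.13-fold. The 3 slides with both groups and without control 616 gave a mean difference of -0.004 ± 0.158 (SD, n = 3).

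The array reads the Igf1 probe in 10 spots, 1 of 245 probes so repeated, which gives the error of reading spots within a hybridization, without that of labelling and hybridization. The SD between spots of an array was 0.035 to 0.075, and in control 616 it was 0.045 around 2.87, so all of its spots were low together. The SD between animals was 0.09 in the 5 hypothyroid and 0.12 in the other 4 control livers, which holds the errors of labelling and hybridization too. Igf1 was about 18.4-fold above the reference in those 4 control livers.

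**Figure D2:**
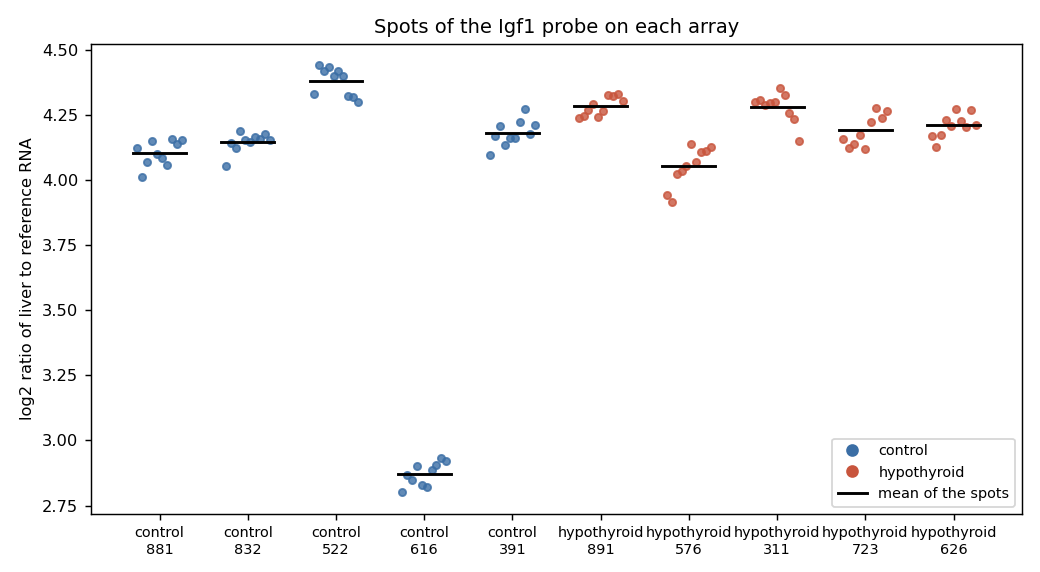
Log2 ratio of liver to reference RNA (y axis) for each spot of the Igf1 probe on the 10 arrays (x axis), with the mean of the spots as a bar. The spots of control 616 lie at 2.80 to 2.93, and those of all other arrays lie between 3.92 and 4.44.

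Igfals and Igfbp3 encode the partners of IGF-1 in its large blood complex. Igfals gave 3.08, 3.41, 3.32, 2.20 and 3.04 in control and 3.19, 3.32, 3.10, 3.08 and 3.11 in hypothyroid livers. All hypothyroid livers lay within the range of the controls, and the change was 0.15 (standard error 0.19, adjusted p = 0.858). Without control 616 the sign turned, at -0.05 with a 95% interval of -0.25 to 0.15. Igfbp3 gave 2.51, 2.79, 2.60, 1.36 and 2.36 in control and 2.68, 2.75, 2.74, 2.45 and 2.40 in hypothyroid livers. Its groups overlapped as fully, with a change of 0.28 (standard error 0.23, adjusted p = 0.775) that became 0.04 without control 616. In the liver most Igfbp3 mRNA is made outside hepatocytes, and in whole liver fewer cells of a type and less RNA per cell cannot be told apart.

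Igfbp1, which insulin represses and fasting raises within hours, had the largest change of the 9 genes, and it rested on 1 array. The ratios were 5.71, 5.50, 5.93, 2.67 and 6.06 in control and 6.12, 5.51, 6.02, 5.95 and 5.95 in hypothyroid livers. Control 616 differed from the mean of the other controls by -3.13, its widest gap among these genes. The change was 0.73 (standard error 0.55, adjusted p = 0.763) and, without control 616, 0.11 with a 95% interval of -0.19 to 0.41. Within slides it was 3.28 on the slide of control 616 and 0.09, 0.40 and 0.01 on the others. Igfbp1 lies next to Igfbp3 on chromosome 11 with 0 genes between them, and without control 616 the intervals of both changes held 0.

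Igfbp2, a binding protein that is abundant in fetal liver and declines after birth, had the highest mean difference after Igfbp1, and it did not rest on control 616 alone. Its ratios were 3.15, 3.49, 3.76, 2.72 and 3.59 in control and 3.54, 3.61, 3.86, 4.09 and 3.81 in hypothyroid livers. Of the hypothyroid livers 3 of 5, numbers 311, 723 and 626, lay above every control. The change of Igfbp2 was 0.44 (standard error 0.18, unadjusted p = 0.0353, adjusted p = 0.65), or 1.36-fold, and the exact permutation p was 0.0476. It was above 0 on all 4 slides with both groups, by 1.09 on the slide of control 616 and by 0.11, 0.40 and 0.12 on the others. Without the slide of control 616 the mean within-slide difference was 0.21 ± 0.16 (SD, n = 3). Without control 616 the change was 0.29 (unadjusted p = 0.0553, adjusted p = 0.691). Leaving out control 881, hypothyroid 311, hypothyroid 723 or hypothyroid 626 alone gave 0.39, 0.42, 0.37 and 0.44. The unadjusted limma p was then 0.0781, 0.0672, 0.0876 and 0.0609, and it stayed below 0.05 when any of the remaining arrays was left out. Without controls 832, 522 and 616 it was 0.41 (unadjusted p = 0.0269, adjusted p = 0.588), which also leaves out the highest control, 522 at 3.76. With slide as a fixed block and control 616 kept, the change was 0.43 (unadjusted p = 0.0593).

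Igfbp4, which binds IGF and is cut by the protease PAPP-A, gave 2.29, 2.99, 2.87, 1.04 and 2.67 in control and 2.28, 2.83, 2.74, 2.62 and 2.42 in hypothyroid livers. The groups overlapped on both of its probes. The change of the lead probe was 0.21 (standard error 0.32, adjusted p = 0.884), and without control 616 it turned to -0.13 with a 95% interval of -0.45 to 0.20. The second probe gave 0.03 and -0.18 in the same way. On the 3 slides with both groups and without control 616 the hypothyroid liver was the lower each time, by a mean difference of -0.10 ± 0.07 (SD, n = 3) on the lead probe.

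**Figure D3:**
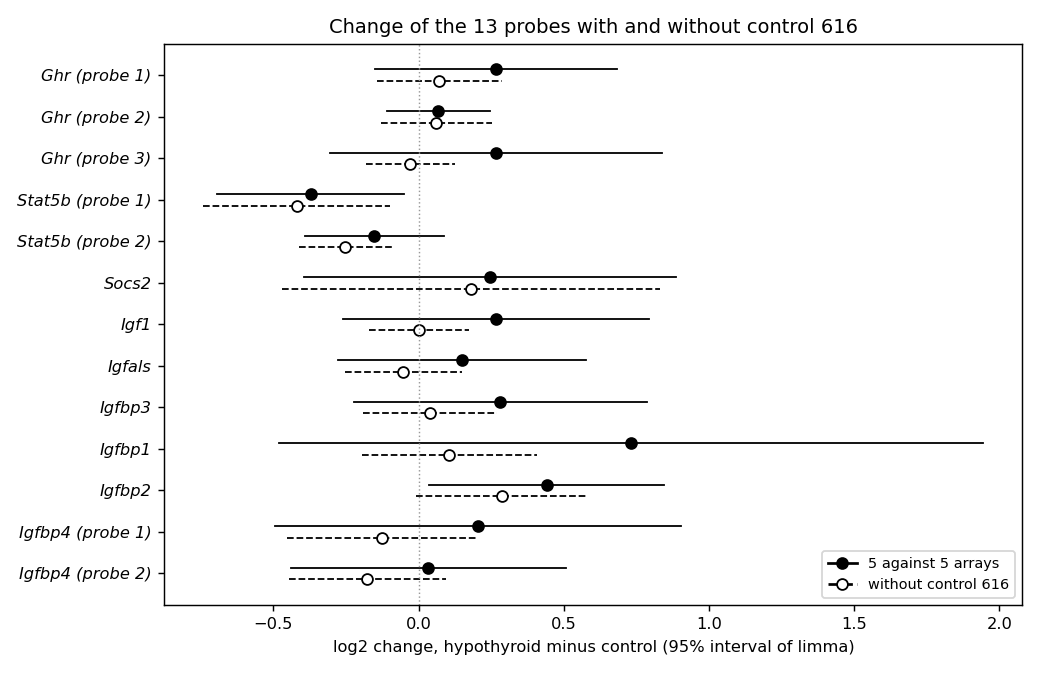
Change of each of the 13 probes as hypothyroid minus control log2 ratio (x axis), with the 95% interval of limma, from 5 against 5 arrays (filled) and without control 616 (open). The intervals of both Stat5b probes lie below 0 without control 616, and those of the other probes hold 0.

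Of the other genes of the axis, 54 of 57 listed had a probe, and 77 of their 82 probes were tested. None passed an adjusted p of 0.05 by limma, while at an unadjusted p below 0.05 there were 4 higher and 4 lower, and 3 higher and 2 lower probes were without overlap, that is 8 and 5 of 77 beside 7.47% and 2.07% of all probes. Their median change was -0.03 beside -0.01 over all probes. The 5 receptors of the list, among them Igf1r and the prolactin receptor Prlr, had 0 of 7 probes at an unadjusted p below 0.05, and the 6 genes under insulin and FOXO control had 0 of 9. Among these last, G6pc, which releases glucose from hepatocytes and was looked at after its values were seen, was at 3.32 to 4.36 in control and 4.46 to 4.47 in hypothyroid livers, with no overlap. Its change was 0.37 (unadjusted p = 0.0541, adjusted p = 0.672) and, without control 616, 0.18 (unadjusted p = 0.0147, adjusted p = 0.483). The liver genes under GH control had 1 higher and 1 lower of 14.

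Igf2, the fetal ligand of the axis, had the widest positive difference of the list. Its lead probe gave 3.34, 3.86, 3.73, 1.69 and 3.43 in control and 3.91, 3.98, 4.12, 4.08 and 4.04 in hypothyroid livers. Every hypothyroid liver lay above every control. The change was 0.82 (standard error 0.34, unadjusted p = 0.0348, adjusted p = 0.65), and without control 616 it was 0.44 (unadjusted p = 0.00156, adjusted p = 0.206). Without controls 832, 522 and 616 it was 0.64 (unadjusted p = 3.12e-05, adjusted p = 0.0688). Its second probe gave 0.73 and, without control 616, 0.39. On that probe the groups overlapped, as hypothyroid 576, at 3.33, lay below control 832, at 3.57, and control 522, at 3.38. Afp, another gene of the fetal hepatocyte, gave 5.50, 4.91, 4.82, 3.33 and 4.25 in control and 5.69, 4.89, 5.95, 6.31 and 5.77 in hypothyroid livers, a change of 1.16 (adjusted p = 0.522). Dlk1, the remaining fetal marker measured, had a change of -0.27 (adjusted p = 0.85), and 0.09 without control 616.

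Grb10, an adaptor that binds the insulin and IGF-1 receptors and damps their signal, had the smallest p of the list on 1 of its 3 probes. That probe gave -0.24, 0.06, -0.19, -0.57 and -0.34 in control and 0.32, 0.16, 0.32, 0.43 and 0.10 in hypothyroid livers, with no overlap. The change was 0.52 (standard error 0.11, unadjusted p = 0.00072, adjusted p = 0.245). The other Grb10 probes gave 0.24 and 0.07 with overlap, so the probes of this gene disagree in size.

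Htra1, a protease that cuts IGF binding proteins, was far below the reference and lower in every hypothyroid liver, at -2.65, -2.73, -2.68, -1.41 and -2.70 in control and -3.03, -3.03, -2.81, -2.80 and -3.21 in hypothyroid livers. The change was -0.54 (adjusted p = 0.66) and -0.28 without control 616. Elovl3, a fatty acid elongase that GH controls in liver, gave 0.00, 0.17, 0.72, 0.02 and 0.12 in control and -0.17, -0.32, -0.13, -0.25 and -0.25 in hypothyroid livers, a change of -0.43 (adjusted p = 0.473) with no overlap. The change of Elovl3 was -1.67 with the processed signals and -0.24 with the dyes as labelled. Onecut1, a hepatocyte transcription factor that GH induces, gave 2.72, 3.03, 3.36, 2.24 and 2.55 in control and 3.46, 3.45, 2.99, 3.15 and 3.21 in hypothyroid livers, with overlap and a change of 0.47 (adjusted p = 0.633). These GH-controlled genes had changes of opposite sign.

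**Figure D4:**
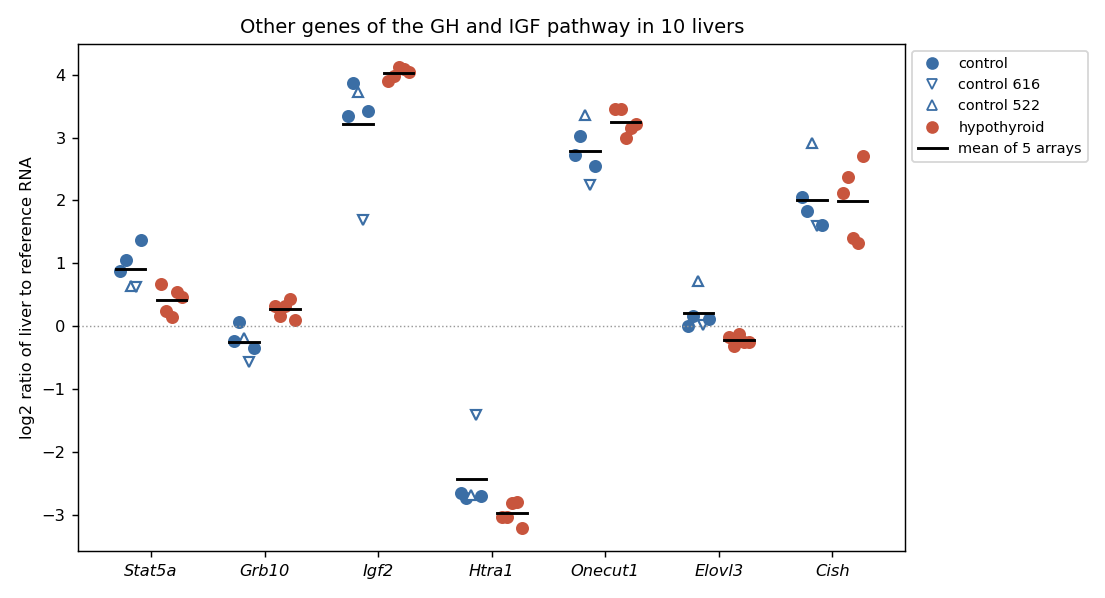
Log2 ratio of liver to reference RNA (y axis) for Stat5a, Grb10, Igf2, Htra1, Onecut1, Elovl3 and Cish (x axis) in 5 control and 5 hypothyroid livers, with group means as bars and controls 616 and 522 as open triangles. On the probes shown, the groups do not overlap for Grb10, Igf2, Htra1 and Elovl3.

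**Figure D5:**
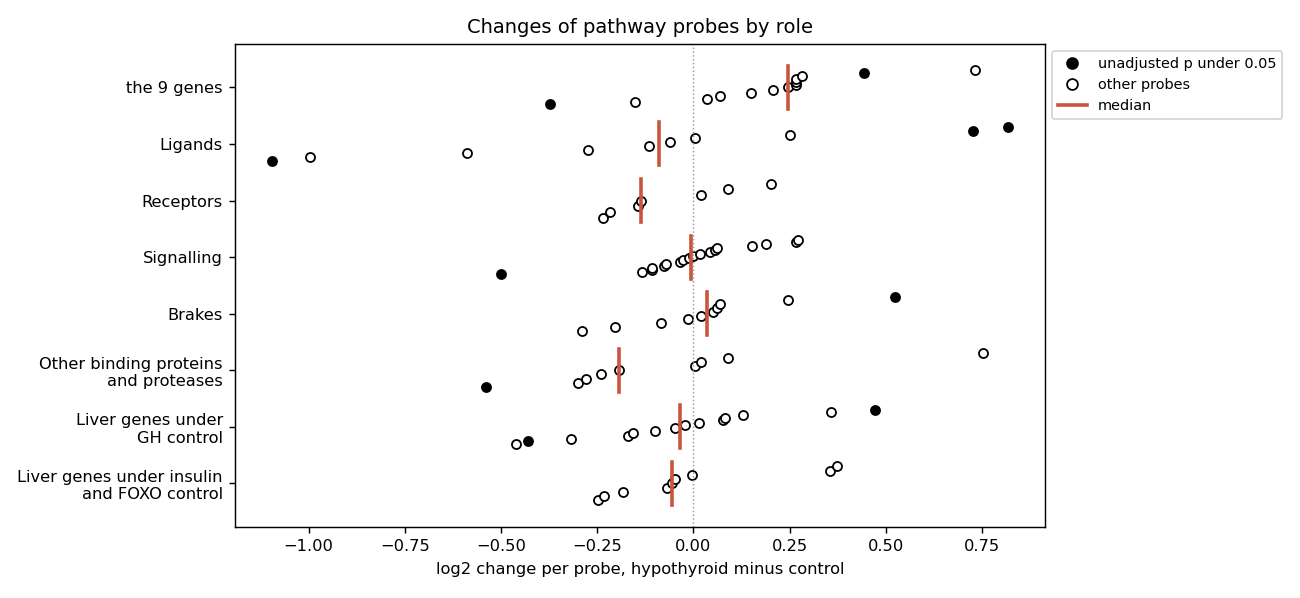
Change per tested probe as hypothyroid minus control log2 ratio (x axis) for the 9 genes and for 7 groups of other pathway genes (y axis), with filled points at an unadjusted p below 0.05 and the median as a bar. The medians of the 7 groups lie between -0.19 and 0.04, and that of the 9 genes at 0.25.

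Cell markers were set beside these results, and counts at an unadjusted p below 0.05 stand beside 7.47% of all probes. For hepatocytes, 2 of 8 marker probes (Alb and Tat) had a higher mean in hypothyroid liver at an unadjusted p below 0.05. The changes of all 8 ran from 0.38 to 0.78, with a median of 0.64, and of 0.32 without control 616. Igfbp2 had changes of 0.44 and, without control 616, 0.29. The mean ratio of the hepatocyte list ran from 3.03 to 5.02 in control, 4.39 to 5.02 without control 616, and 4.65 to 5.05 in hypothyroid liver. The fetal hepatocyte list had 3 of 4 probes higher, both probes of Igf2 and that of Afp. Its mean ratio ran from 1.57 to 2.50 in control, 2.20 to 2.50 without control 616, and 2.46 to 3.10 in hypothyroid liver. Endothelial markers had 3 of 11 probes lower, all of Fcgr2b, the stellate cell list had 1 higher (Reln) and 2 lower (Col1a1 and Col3a1), and of the erythroid list Klf1 was higher. Markers of exocrine pancreas had 5 of 6 probes lower and those of muscle 3 of 7, and these lists ran from 0.95 to 3.94 and from -0.83 to -0.33 in control and from 0.79 to 0.94 and from -0.92 to -0.78 in hypothyroid liver. None of these probes passed an adjusted p of 0.05. The part of any of these cells in the values of Stat5b and Igfbp2 was not tested.

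The probes whose pattern was most like that of Igf1 over the 9 arrays without control 616, out of 20490 probes with a gene symbol, were those of Med15 (Pearson r = 0.957), Kcnt1 (0.941) and Saa4 (0.939), and over all 10 arrays the same values were 0.909, 0.411 and 0.960. For Igfbp1 they were Fabp1 (0.991), the fatty acid binding protein of hepatocytes, Serpinc1 (0.970), which encodes antithrombin, and Sec14l2 (0.969), and over all 10 arrays the values were 0.997, 0.991 and 0.981. These points share arrays and scaling, and the correlations describe these arrays only.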

How the data were processed

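Liver RNA of 10 pups was measured on two-colour Agilent arrays against a common reference, and the miRNA assays of the series were not used. The authors deposited the scanner intensity of each spot in both channels, not normalized, beside the processed signals of the same software (Feature Extraction 10.1.1.1). The processed signals were used only as an alternative. The labels gave group and animal number. Median intensities were corrected with normexp (offset 50) and normalized by loess (span 0.2), control and outlier spots were left out, and spots of a probe were averaged. A probe was kept if above the background limit (that of the negative control spots, their 5% trimmed mean with 3 trimmed SDs added) on 4 of 5 arrays of a group. limma 3.58.1 in R 4.3.3 was used in place of the F test of the methods, with Benjamini-Hochberg adjustment over all probes kept. The random slide block used statmod 1.5.0, and files were read with data.table (version 1.17.8). All 13 probes were well above background in both channels on 10 arrays. Precision is limited by the number of arrays, and the standard error for Igf1 was 0.24 with control 616 and 0.08 without it. The channels of control 832 and hypothyroid 576 were exchanged. Probes were named by accession through RefSeq genes of GRCm38.p6 (23374 of 41174 matched), and promoters are from RefSeq. The genes, lists and alternatives were chosen with earlier results of these data known. Named beside the 9 genes were pathway genes without overlap at an unadjusted p below 0.05, filled up to 6 by smallest p, the 3 likest genes of Igf1 and Igfbp1, and markers at an unadjusted p below 0.05. Other normalizations, filters, slide blocks and left-out arrays were tried, and the programs were tested on simulated data.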

Additional observations from a re-analysis of the deposited data

Results flagged for a closer look

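In 30 groups of 5 arrays, from the lead probes of the 9 genes and of 6 other pathway genes, the gap of the farthest array to its nearest neighbour was set against the range of its group, and 7 groups had a gap beyond the 95% limit (23.3%), where chance gives about 5%. For 4 of them the array was control 616, with a share of the range of 0.818 for Igf1, 0.835 for Igfbp1 and 0.759 for Igf2, where it was lowest, and 0.944 for Htra1, where it was highest. Control 522 was highest for Socs2 (0.924) and for Elovl3 (0.77). Hypothyroid 576, 1 of the arrays with exchanged channels, was lowest for Igfbp1 (0.724), at 5.51 beside 5.95 for the next array. The cause of these gaps was not tested.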

How the results depend on the processing

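For the 13 probes of the 9 genes, and for the 77 probes of the other pathway genes, the number past an adjusted p of 0.05 was 0 under all 23 alternatives, as in the comparison reported. Over all probes the number was 3, and it became 8 with no background correction, 1 with the processed signals, 1 with median centring, 5 with probes above the limit on all 10 arrays, 0 with slide as a fixed block, 14 with slide as a random block, 0 with the dyes as labelled, 0 without the exchanged slide, 1 without controls 832, 522 and 616 and 0 from the liver channel alone on 8 arrays. Leaving out 1 array at a time gave 1 to 33, the last without control 616. For the 13 probes the leave-one-out number was 0 to 0. The direction turned for Igf1 in the liver channel alone, at -0.28, and when control 616 was left out for Igfals (-0.05) and Igfbp4 (-0.13). Leaving out each array in turn gave Igfals a change of -0.053 to 0.25, and Igfbp4 one of -0.127 to 0.359. The alternatives without 3 controls and from the liver channel alone were added after the data were seen. The other lead probes kept their direction, with Stat5b at -0.61 to -0.20 and Igfbp2 at 0.29 to 0.96. So did the other pathway genes named, with Igf2 at 0.44 to 1.46, Grb10 at 0.28 to 0.74, Onecut1 at 0.30 to 0.64, Stat5a at -0.71 to -0.18, Htra1 at -0.65 to -0.28 and Elovl3 at -1.67 to -0.24, and the cause of these shifts was not tested. The adjusted p over all alternatives was 0.344 or above for Stat5b, 0.441 or above for Igfbp2 and 0.178 or above for Socs2. No paired analysis was possible because the animals on the arrays carry numbers that the 2 groups do not share. The slides that hold both groups gave the blocked fit above and the differences within slides.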
